A study of Homo sapiens with 12 samples.

Results

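Collagen chain genes encode the polypeptides that wind together, as trimers of like or unlike chains, into collagens. All rows of the gene table whose identifier belongs to a protein-coding gene with a symbol of the form COL, number, A, number were taken, which gave 44 genes of the 58302 in the table. They were measured by bulk polyA-selected RNA sequencing in PC3 and 22Rv1 cells that carried an eGFP control vector, wild-type ETV4 or a mutated ETV4. By the structure of their products, 11 are fibrillar collagens, 9 basement membrane or basement membrane zone collagens, 4 transmembrane collagens, 10 FACITs (collagens that sit on the surface of other fibrils), 5 type VI beaded filament chains, 3 hexagonal network chains and 2 others. Of the 44, 38 had counts high enough to be tested.

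Fibrillar collagens form the ropes of bone, skin, tendon and cartilage. Type IV collagen forms the sheet of basement membranes, and type XVII and type VII collagen hold an epithelium to that sheet, from the cell side and the stromal side respectively. In the prostate, most fibrillar collagen is made by stromal fibroblasts, while epithelial cells rest on a basement membrane rich in type IV collagen.

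PC3 is an established prostate carcinoma line that was derived from a bone metastasis, and 22Rv1 is an established prostate carcinoma line derived from a xenograft. Cells of both lines were infected with lentivirus made with an MSCV-IRES-GFP vector. It carried IRES-eGFP alone (eGFP, the control), wild-type ETV4 followed by IRES-eGFP (ETV4WT) or ETV4AAA followed by IRES-eGFP, where ETV4AAA is a mutated form whose mutation the labels do not describe further. ETV4 is a transcription factor of the ETS family. All 6 groups therefore carry the vector and eGFP, and all were sorted as DAPI-negative, eGFP-positive cells 1 week after infection. Each group has 2 libraries, and the labels do not say whether these come from separate infections, so each p-value measures the spread between these libraries, which may be technical. Each line is a single established line in which ETV4 was driven from the viral vector.

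Library totals ran from 41698738 to 51199207 counts. ETV4 transcripts, which come from the construct and the gene together, stood at 31.2 and 24.9 CPM (counts scaled to the library's size, with TMM factors) in 22Rv1 eGFP, 385 and 484 in ETV4WT and 389.9 and 281 in ETV4AAA. In PC3 they stood at 116 and 126 with eGFP, 215 and 112 with ETV4WT and 223 and 109 with ETV4AAA. Replicate 2 of PC3 ETV4WT and replicate 2 of PC3 ETV4AAA were thus not above the eGFP level, so PC3 values are given with and without them where this ends a call. AXL, a receptor kinase that is high in PC3, was 10.6 and 10.4 CPM in PC3 eGFP and at most 0.0237 in the 6 22Rv1 libraries. The summed level of 10 fibroblast, endothelial and immune markers was 3.26 ± 0.953 CPM (mean ± SD, n = 2) in 22Rv1 eGFP and 3.33 ± 0.629 in 22Rv1 ETV4AAA, and in PC3 55.8 ± 2.01 with eGFP, 48.5 ± 2.03 with ETV4WT and 72.2 ± 7.08 with ETV4AAA. Most of the PC3 sum came from PDGFRA, LUM and PECAM1, while CDH5 was at most 0.0804 CPM, VWF at most 0.123 and PTPRC at most 0.258 in any library.

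The 2 lines differed in how much collagen transcript they held and in which chains. Summed over the 44 genes, the level was 1226 ± 26.3 CPM (mean ± SD, n = 2) in PC3 eGFP and 114 ± 18.2 in 22Rv1 eGFP. With ETV4WT it was 1099.5 ± 161 in PC3 and 142 ± 19.9 in 22Rv1. With ETV4AAA it was 1140.3 ± 206 in PC3 and 860.3 ± 175 in 22Rv1, where the libraries held 984 and 737 CPM, above all 4 other 22Rv1 libraries and below all 6 PC3 libraries. A mean of at least 1 CPM was reached by 21 members in PC3 eGFP, 22 in PC3 ETV4WT, 21 in PC3 ETV4AAA, 18 in 22Rv1 eGFP, 17 in 22Rv1 ETV4WT and 25 in 22Rv1 ETV4AAA.

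**Figure D1:**
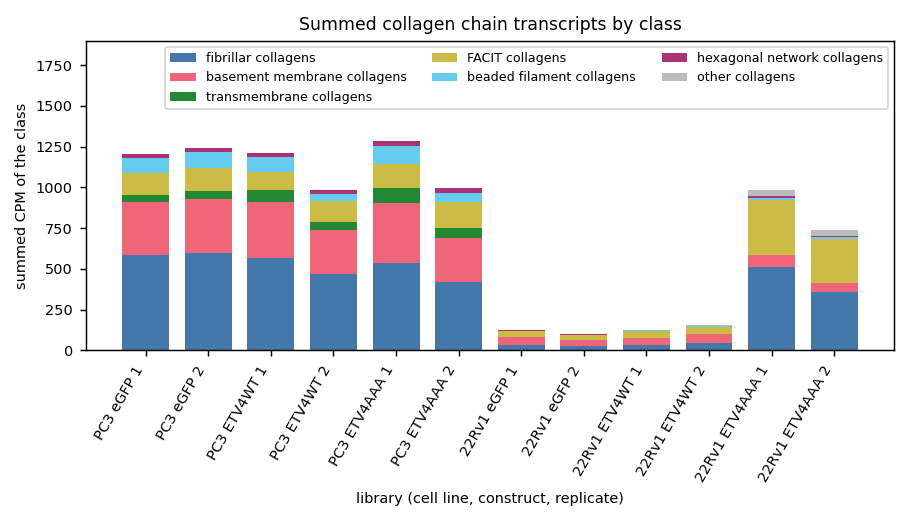
Summed CPM of the collagen chain genes in each of the 12 libraries, stacked by collagen class; the bar height is the sum over all 44 genes. The 6 PC3 bars lie between 985 and 1286 CPM, the 4 bars of 22Rv1 eGFP and ETV4WT between 101 and 156, and the 22Rv1 ETV4AAA bars at 984 and 737, mostly fibrillar and FACIT chains.

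Chains were ranked within each group by CPM per kilobase of exon, a scale that takes gene length into account. The length was that of all annotated exons of a gene joined, each base counted once. It can exceed that of any single transcript, so ranks depend on the annotation. In PC3 eGFP the type I chain COL1A2 led with 32.0 CPM per kilobase, followed by the type V chain COL5A2 with 27.0, the type VI chain COL6A1 with 11.0 and the basement membrane chain COL4A5 with 10.7. COL1A2 and COL5A2 also led in PC3 ETV4WT and PC3 ETV4AAA. In 22Rv1 eGFP, no chain was above 2.05 CPM per kilobase, the level of the type IX chain COL9A3 and of COL4A5. In 22Rv1 ETV4AAA, COL2A1, the chain of the main cartilage collagen, reached 61.7 CPM per kilobase, the FACIT COL14A1 21.8 and the type IX chain COL9A2 17.4. COL2A1 held 47.5% of all collagen CPM in that group, and COL1A2 held 29.1% in PC3 eGFP.

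**Figure D2:**
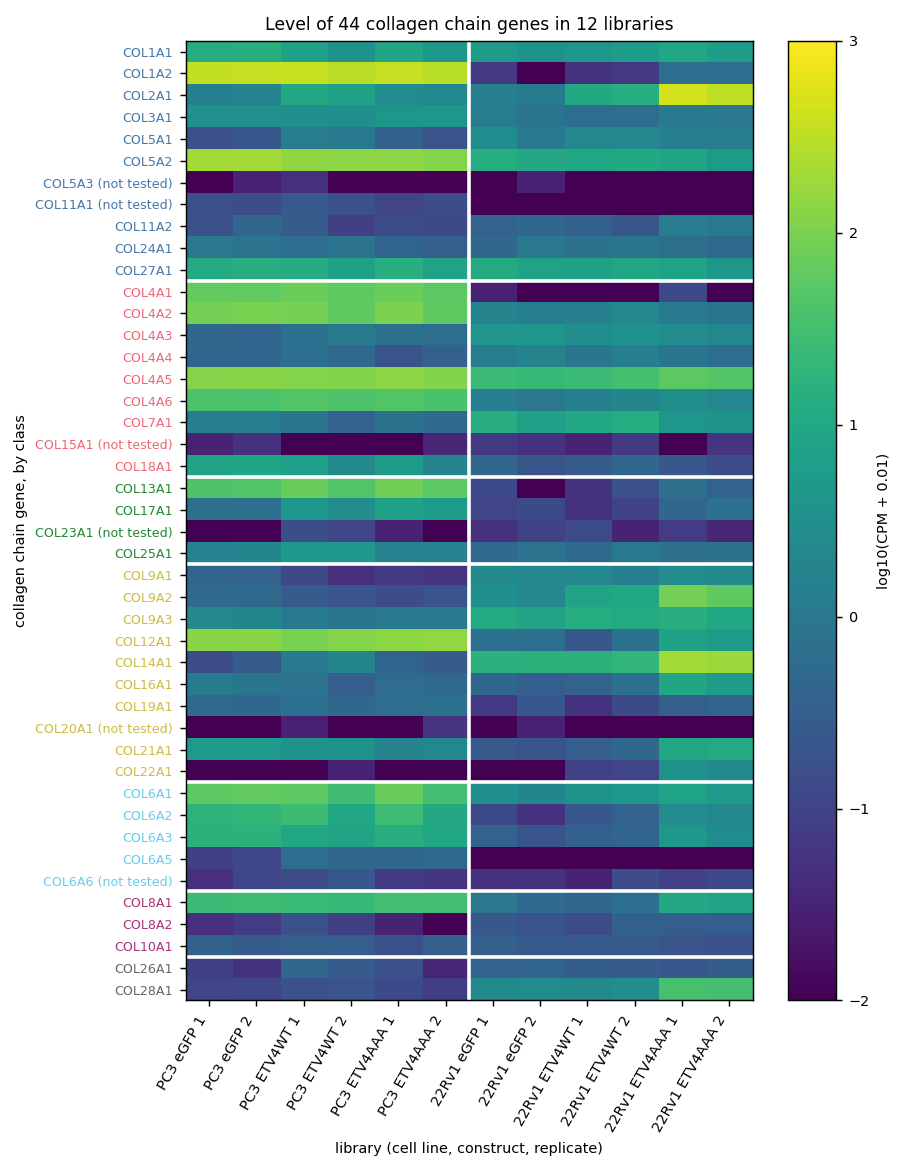
Level of all 44 collagen chain genes (rows, coloured by class) in the 12 libraries (columns) as log10(CPM + 0.01). COL1A2 and COL5A2 are bright in the 6 PC3 libraries, and COL2A1, COL9A2 and COL14A1 are bright in both 22Rv1 ETV4AAA libraries; the 6 genes marked as not tested are dark throughout.

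Members were counted as higher or lower where the Benjamini-Hochberg adjusted p of edgeR's quasi-likelihood test, adjusted over all 23238 genes tested, was under 0.05. With ETV4AAA in 22Rv1, 18 of 38 tested members rose and 4 fell against eGFP, where 17.4% and 14.4% of all tested genes did so. The median log2 change of the members was 1.10, also with the member at 0 counts set at its bound, and that of all genes was -0.0012. Without 22Rv1 ETV4AAA replicate 2, 17 rose and all 4 lower calls ended, and without ETV4AAA replicate 1, 14 rose and 3 fell. COL22A1, 1 of the 18, was tested only because of its counts in 22Rv1 ETV4AAA. With ETV4WT in 22Rv1, 2 members rose and 0 fell, against 1.06% and 0.439% of all genes. Of those lower, 1 had an unadjusted p under 0.05 and DESeq2's Wald test called 0. Between ETV4AAA and ETV4WT in 22Rv1, 18 members were higher with ETV4AAA and 2 lower, against 13.9% and 9.62%. Both of these lower calls ended without ETV4AAA replicate 2, and also without ETV4WT replicate 2. The ETV4WT count in 22Rv1 was 1 without 22Rv1 eGFP replicate 2 and 5 with no low-count filter. The comparisons within a line share libraries, so their counts are not independent of each other.

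In PC3, 8 members rose and 4 fell with ETV4WT, where 12.7% and 10.7% of all genes did. With ETV4AAA 2 rose and 2 fell, against 2.45% and 1.24% of all genes. COL6A5, 1 of the rises with each construct, was tested only because of its counts in PC3 ETV4WT and PC3 ETV4AAA. Between ETV4AAA and ETV4WT, 1 member was higher with ETV4AAA and 5 were lower, against 3.65% and 7.32%. Without PC3 ETV4WT replicate 2 and ETV4AAA replicate 2, 9 members were higher with ETV4WT and all 4 lower calls ended, so that 7 of the 12 calls remained. Without the same libraries, 1 rose and 1 fell with ETV4AAA, and between ETV4AAA and ETV4WT the 4 that passed were all lower. For ETV4WT, 6 rose and 1 fell without PC3 eGFP replicate 1, 6 rose and 2 fell without eGFP replicate 2, 7 rose and 1 fell without ETV4WT replicate 2, and 7 rose and 7 fell without ETV4WT replicate 1. The single higher call between ETV4AAA and ETV4WT ended without either ETV4AAA library or ETV4WT replicate 2. For ETV4AAA, 7 passed without ETV4AAA replicate 1, 2 without ETV4AAA replicate 2 or either eGFP library and 13 with no low-count filter. Between ETV4AAA and ETV4WT, 10 passed with no filter. Upper-quartile scaling turned the share of higher genes among all called genes from 54.4% to 69.2% for PC3 ETV4WT and from 33.3% to 17.0% for PC3 ETV4AAA against ETV4WT.

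**Figure D3:**
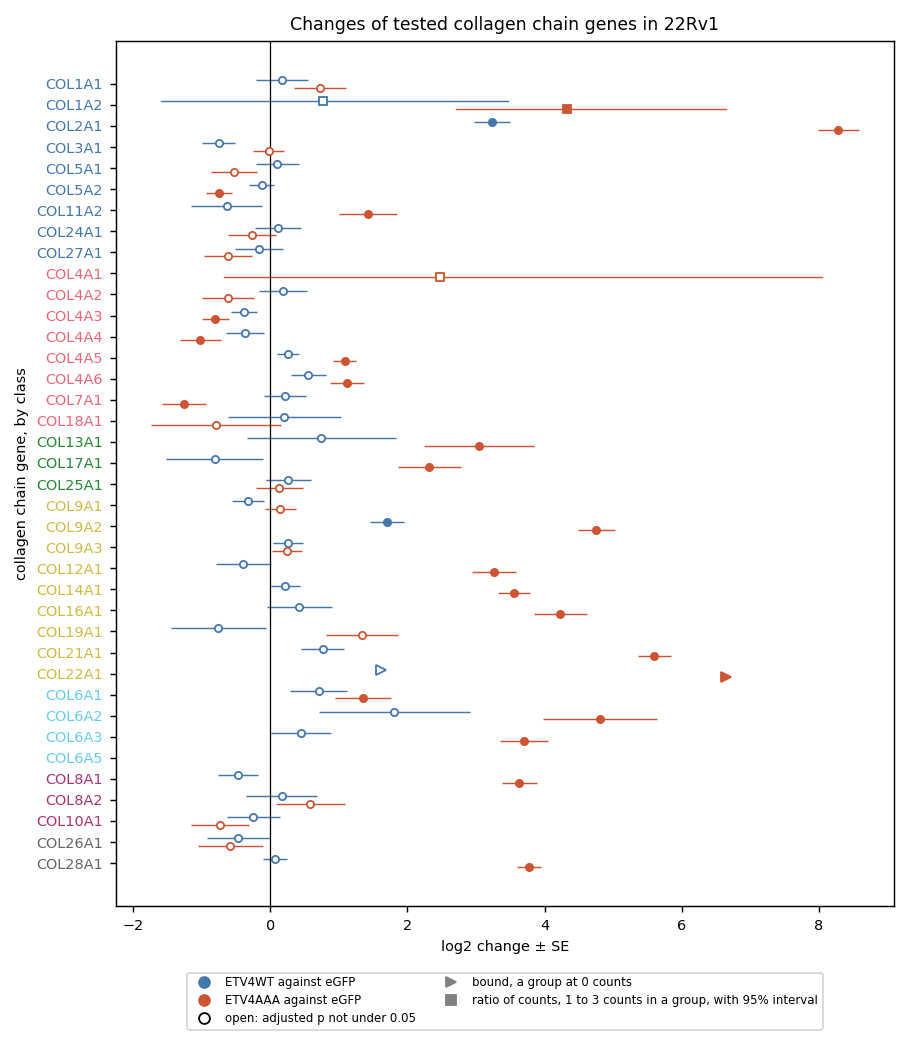
Log2 change against eGFP of the tested collagen chain genes in 22Rv1, ± standard error, with ETV4WT (blue) and ETV4AAA (orange); filled symbols passed the adjusted p of 0.05, triangles are bounds where a group had 0 counts, and squares are ratios of counts with a 95% interval where a group had 1 to 3 counts. Genes at or under 3 counts in both groups have no symbol. COL2A1 lies farthest to the right, at 3.23 with ETV4WT and 8.28 with ETV4AAA.

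Among the fibrillar collagens the change in 22Rv1 was led by COL2A1 (chr12:47972965-48004554, minus strand, in GRCh38 with GENCODE 29 gene models, as all positions of genes here). Its 2 libraries held 1.42 and 1.21 CPM with eGFP, 10.8 and 14.0 with ETV4WT and 484 and 338 with ETV4AAA, so the 3 groups followed each other with no overlap. The log2 change was 3.23 ± 0.26, adjusted p = 5.18e-05 for ETV4WT and 8.28 ± 0.30, adjusted p = 3.47e-09 for ETV4AAA, and ETV4AAA exceeded ETV4WT by 5.05 ± 0.25, adjusted p = 5.15e-08. In PC3, COL2A1 stood at 1.45 and 1.74 CPM with eGFP, 10.6 and 7.32 with ETV4WT and 2.73 and 2.10 with ETV4AAA. It rose there with ETV4WT (log2 2.49 ± 0.25, adjusted p = 3.25e-05) and had a log2 change of 0.61 ± 0.27, adjusted p = 0.289 with ETV4AAA, and it was lower with ETV4AAA than with ETV4WT (-1.88 ± 0.24, adjusted p = 3.46e-04). Between the lines with eGFP, the COL2A1 difference was -0.28 ± 0.28, adjusted p = 0.392. In bulk libraries, fewer cells with a transcript and less transcript per cell cannot be told apart.

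COL11A2, a chain of the type XI collagen found in cartilage fibrils beside type II, had 0.369 and 0.453 CPM with eGFP, 0.327 and 0.204 with ETV4WT and 1.24 and 0.973 with ETV4AAA in 22Rv1 and rose with ETV4AAA (log2 1.43 ± 0.43, adjusted p = 0.0231). That call ended without either 22Rv1 ETV4AAA library or either 22Rv1 eGFP library (log2 1.22 to 1.57, adjusted p 0.0578 to 0.151), and in DESeq2's Wald test (log2 1.44, adjusted p = 0.0548). In PC3 COL11A2 had 0.161 and 0.430 CPM with eGFP, 0.279 and 0.0804 with ETV4WT and 0.144 and 0.120 with ETV4AAA and passed in no comparison.

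The type I chains COL1A1 and COL1A2, which join in type I collagen of bone and skin, were at very unequal levels between the lines. COL1A2 (chr7:94394561-94431232, plus strand) had 352 and 361 CPM with eGFP, 384 and 308 with ETV4WT and 368 and 287 with ETV4AAA in PC3, with no call between the PC3 groups. In 22Rv1 it had 0.0615 and 0 CPM with eGFP, 0.0435 and 0.0612 with ETV4WT and 0.621 and 0.617 with ETV4AAA. The 22Rv1 eGFP libraries held 3 COL1A2 counts in all against 34290 in PC3 eGFP, a ratio of 11562 with an exact 95% interval of 3956 to 56069.6 that covers counting error only. In 22Rv1 ETV4AAA 54 counts were found against those 3, a ratio of 20.1 (95% interval 6.52 to 100.4), and the gene passed as higher (adjusted p = 1.16e-04). Even so its level there was 0.174% of that in PC3 eGFP. The fitted change, 4.22, was 7.86 without 22Rv1 eGFP replicate 1 and 3.25 without 22Rv1 eGFP replicate 2.

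COL1A1 was nearer between the lines, at 12.4 and 13.6 CPM with eGFP, 7.40 and 3.62 with ETV4WT and 8.79 and 4.66 with ETV4AAA in PC3 and 5.66 and 3.73 CPM with eGFP, 4.27 and 6.29 with ETV4WT and 9.34 and 6.15 with ETV4AAA in 22Rv1. It was lower in 22Rv1 eGFP than in PC3 eGFP (log2 -1.47 ± 0.38, adjusted p = 0.00411), a call that ended without 22Rv1 eGFP replicate 2 (log2 -1.21, adjusted p 0.0566). It fell with ETV4WT in PC3 (log2 -1.24 ± 0.38, adjusted p = 0.0327). That call ended without either PC3 eGFP library, PC3 ETV4WT replicate 2 or PC3 ETV4WT replicate 2 and ETV4AAA replicate 2 together (log2 -1.31 to -0.73, adjusted p 0.0900 to 0.217), the change was -1.85 without PC3 ETV4WT replicate 1, and the call ended also when PC3 was fitted on its own (log2 -1.18, adjusted p = 0.0856).

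COL5A2 and COL5A1 encode chains of type V collagen, which sits inside type I fibrils and limits their width. COL5A2 had 201 and 201 CPM with eGFP, 147 and 135 with ETV4WT and 137 and 116 with ETV4AAA in PC3 and 12.5 and 10.3 CPM with eGFP, 9.97 and 10.9 with ETV4WT and 8.32 and 5.29 with ETV4AAA in 22Rv1, and was lower in 22Rv1 eGFP (log2 -4.14 ± 0.21, adjusted p = 4.09e-09). It fell with ETV4AAA in 22Rv1 (log2 -0.74 ± 0.19, adjusted p = 0.0106), a call that ended without 22Rv1 ETV4AAA replicate 2 or 22Rv1 eGFP replicate 1 (log2 -0.62 to -0.47, adjusted p 0.0851 to 0.0938). In PC3 its change was -0.51 ± 0.18, adjusted p = 0.0584 with ETV4WT and -0.67 ± 0.18, adjusted p = 0.0703 with ETV4AAA. COL5A1 ran the other way between the lines, with 0.161 and 0.215 CPM with eGFP, 1.30 and 1.03 with ETV4WT and 0.349 and 0.191 with ETV4AAA in PC3 and 2.69 and 1.17 CPM with eGFP, 2.11 and 2.04 with ETV4WT and 1.44 and 1.23 with ETV4AAA in 22Rv1. Its line difference was 3.35 ± 0.45, adjusted p = 2.73e-05, and 2.62 without 22Rv1 eGFP replicate 1. COL5A1 rose with ETV4WT in PC3 (log2 2.62 ± 0.47, adjusted p = 0.00178), from below every 22Rv1 library to near the lowest of them. The type III chain COL3A1, a partner of type I in skin and vessel walls, had 3.34 and 3.42 CPM with eGFP, 2.97 and 2.87 with ETV4WT and 4.40 and 4.33 with ETV4AAA in PC3 and 1.27 and 0.823 CPM with eGFP, 0.631 and 0.612 with ETV4WT and 1.09 and 0.973 with ETV4AAA in 22Rv1, was lower in 22Rv1 eGFP (log2 -1.69 ± 0.20, adjusted p = 1.25e-05) and passed in neither line against eGFP. COL27A1, a short fibrillar collagen of growth cartilage, had 11.6 and 13.1 CPM with eGFP, 11.8 and 7.38 with ETV4WT and 14.3 and 7.60 with ETV4AAA in PC3 and 11.2 and 7.45 CPM with eGFP, 7.23 and 9.43 with ETV4WT and 7.74 and 4.41 with ETV4AAA in 22Rv1 and passed in no comparison.

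The FACITs were the class with the most rises in 22Rv1 by number: 6 of 9 tested rose with ETV4AAA, and 0 fell (0 also at an unadjusted p under 0.05 or by DESeq2's Wald test), where 17.4% of all tested genes rose and 14.4% fell. Of the type VI chains 3 of 4 rose and of the transmembrane chains 2 of 3, so the share was not particular to FACITs. COL22A1, tested only through its ETV4AAA counts, is 1 of the 6. Their median log2 change was 3.55. COL9A2 (chr1:40300487-40317813, minus strand), a chain of the type IX collagen that coats cartilage fibrils, stood at 3.24 and 2.18 CPM with eGFP, 8.27 and 9.41 with ETV4WT and 89.9 and 56.5 with ETV4AAA. It rose with ETV4WT (log2 1.70 ± 0.25, adjusted p = 0.00407) and with ETV4AAA (log2 4.75 ± 0.27, adjusted p = 9.13e-08), and the ETV4WT call ended without 22Rv1 eGFP replicate 2 (log2 1.44, adjusted p 0.0830). In PC3 COL9A2 had 0.523 and 0.537 CPM with eGFP, 0.279 and 0.201 with ETV4WT and 0.144 and 0.191 with ETV4AAA, with changes of -1.13 ± 0.39, adjusted p = 0.0568 and -1.66 ± 0.43, adjusted p = 0.0614. Its partner chains did not pass in 22Rv1. COL9A3 had 11.6 and 8.21 CPM with eGFP, 12.5 and 11.1 with ETV4WT and 14.1 and 9.47 with ETV4AAA there (ETV4AAA change 0.25 ± 0.22, adjusted p = 0.432), and COL9A1 had 2.34 and 2.08 CPM with eGFP, 2.11 and 1.43 with ETV4WT and 2.53 and 2.35 with ETV4AAA (ETV4AAA change 0.14 ± 0.23, adjusted p = 0.683). The 3 type IX chains therefore stood in other proportions in 22Rv1 ETV4AAA than in 22Rv1 eGFP, with COL9A2 at 17.4, COL9A3 at 2.44 and COL9A1 at 0.337 CPM per kilobase against 0.643, 2.05 and 0.305.

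In PC3, COL9A1 and COL9A3 fell with ETV4WT. COL9A1 had 0.423 and 0.365 CPM with eGFP, 0.111 and 0.0402 with ETV4WT and 0.0616 and 0.0478 with ETV4AAA and fell with ETV4WT (log2 -2.32 ± 0.47, adjusted p = 0.00381) and with ETV4AAA (log2 -2.78 ± 0.52, adjusted p = 0.0112). The ETV4AAA call ended without PC3 ETV4AAA replicate 2, either PC3 eGFP library or PC3 ETV4WT replicate 2 and ETV4AAA replicate 2 together (log2 -2.87 to -2.63, adjusted p 0.0557 to 0.0954) and when PC3 was fitted on its own (log2 -2.76, adjusted p = 0.0594), and the ETV4WT change was -3.21 without PC3 ETV4WT replicate 1 and -1.71 without PC3 ETV4WT replicate 2 and ETV4AAA replicate 2 together, the latter no longer a call. COL9A3 had 2.21 and 1.98 CPM with eGFP, 1.11 and 0.884 with ETV4WT and 1.05 and 1.12 with ETV4AAA and fell with ETV4WT (log2 -1.06 ± 0.26, adjusted p = 0.0125). That call ended without PC3 eGFP replicate 1, PC3 ETV4WT replicate 2 or PC3 ETV4WT replicate 2 and ETV4AAA replicate 2 together (log2 -0.98 to -0.82, adjusted p 0.0784 to 0.112). With ETV4AAA the COL9A3 change was -0.95 ± 0.27, adjusted p = 0.0821. Exons of COL9A3 overlap those of TCFL5, on the opposite strand, by 45 bases, and no source used here says whether counting used strand.

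COL14A1 and COL12A1, FACITs of type I fibrils in tendon and skin, were high in opposite lines. COL14A1 (chromosome 8) had 15.8 and 16.3 CPM with eGFP, 16.7 and 20.8 with ETV4WT and 201 and 176 with ETV4AAA in 22Rv1 and 0.141 and 0.279 CPM with eGFP, 1.13 and 1.91 with ETV4WT and 0.390 and 0.263 with ETV4AAA in PC3. It rose with ETV4AAA in 22Rv1 (log2 3.55 ± 0.23, adjusted p = 3.17e-07) and with ETV4WT in PC3 (log2 2.85 ± 0.35, adjusted p = 1.38e-04), where its ETV4AAA change was 0.66 ± 0.45, adjusted p = 0.467. Its change with ETV4WT in 22Rv1 was 0.22 ± 0.22, adjusted p = 0.688. COL12A1 (chr6:75084326-75206051, minus strand) had 129 and 129 CPM with eGFP, 99.8 and 119 with ETV4WT and 143 and 155 with ETV4AAA in PC3 and 0.677 and 0.618 CPM with eGFP, 0.218 and 0.755 with ETV4WT and 7.21 and 5.29 with ETV4AAA in 22Rv1. It rose with ETV4AAA in 22Rv1 (log2 3.27 ± 0.32, adjusted p = 1.04e-05), to 4.86% of the PC3 eGFP level.

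COL21A1, a small FACIT of vessel walls and muscle, had 0.246 and 0.185 CPM with eGFP, 0.305 and 0.429 with ETV4WT and 10.0 and 11.2 with ETV4AAA in 22Rv1. Its rise with ETV4AAA (log2 5.60 ± 0.24, adjusted p = 9.49e-09) took it above the PC3 eGFP level of 4.75 and 5.07 CPM. In PC3 it fell with ETV4AAA (log2 -1.34 ± 0.18, adjusted p = 0.00170) to 1.75 and 2.13 CPM, and with ETV4WT, at 3.68 and 3.52 CPM, its change was -0.45 ± 0.17, adjusted p = 0.0840. COL16A1, a FACIT of skin and smooth muscle, had 0.472 and 0.309 CPM with eGFP, 0.370 and 0.674 with ETV4WT and 8.94 and 5.81 with ETV4AAA in 22Rv1 and 1.07 and 0.881 CPM with eGFP, 0.780 and 0.322 with ETV4WT and 0.596 and 0.526 with ETV4AAA in PC3, and rose with ETV4AAA in 22Rv1 (log2 4.23 ± 0.38, adjusted p = 5.22e-06). Exons of COL16A1 overlap an antisense gene by 117 bases. COL22A1 (chromosome 8), a FACIT of the junction between muscle and tendon, had 0 counts in both 22Rv1 eGFP libraries, in both PC3 eGFP and in both PC3 ETV4AAA libraries, 0 and 0.0201 CPM in PC3 ETV4WT, and in 22Rv1 0.0871 and 0.102 CPM with ETV4WT and 3.66 and 2.47 with ETV4AAA. With 269 counts against a floor of 3 over the group, it was at least 100.1-fold higher with ETV4AAA. It passed the filter on low counts only through 22Rv1 ETV4AAA, the group where it is high, so its call is no separate support.

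**Figure D4:**
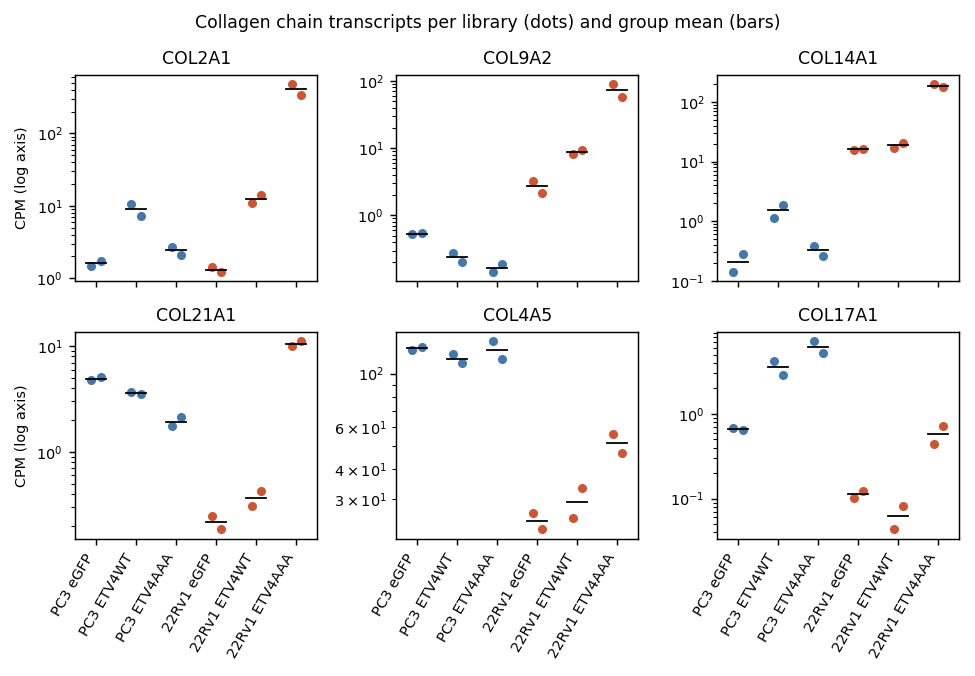
CPM (log axis) of 6 collagen chain genes in each library (dots, PC3 blue and 22Rv1 orange) with the group mean (bar). COL2A1, COL9A2, COL14A1 and COL21A1 are highest in both 22Rv1 ETV4AAA libraries, COL4A5 is higher in PC3 in every group, and COL17A1 is highest in PC3 with ETV4AAA.

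COL28A1 (chr7:7356203-7535853, minus strand), a collagen with von Willebrand factor domains that is known from peripheral nerve and that belongs to none of the main classes, had 2.38 and 2.53 CPM with eGFP, 2.37 and 2.78 with ETV4WT and 34.8 and 32.2 with ETV4AAA in 22Rv1 and 0.101 and 0.107 CPM with eGFP, 0.167 and 0.201 with ETV4WT and 0.123 and 0.0717 with ETV4AAA in PC3. It rose with ETV4AAA in 22Rv1 (log2 3.77 ± 0.18, adjusted p = 1.98e-08) and had a change of 0.07 ± 0.17, adjusted p = 0.906 with ETV4WT. For COL9A2 and COL28A1, which rose in 22Rv1, and for COL17A1, a chain called higher with both constructs in PC3 that exceeded 1 CPM, the 250 bases before the RefSeq start are shown so that ETS cores, the GGAA that this factor family reads, can be seen. They are printed 5′ to 3′ on the gene's strand (the minus strand for all 3) from GRCh38.p14, at chr1:40317287-40317536, chr7:7535874-7536123 and chr10:104085881-104086130, with GGAA or its complement TTCC in capitals.

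COL9A2: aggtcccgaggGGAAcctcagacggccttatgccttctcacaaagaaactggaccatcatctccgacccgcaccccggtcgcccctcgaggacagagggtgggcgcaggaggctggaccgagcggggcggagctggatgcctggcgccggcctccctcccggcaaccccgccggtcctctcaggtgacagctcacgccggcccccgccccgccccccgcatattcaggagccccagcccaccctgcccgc
COL28A1: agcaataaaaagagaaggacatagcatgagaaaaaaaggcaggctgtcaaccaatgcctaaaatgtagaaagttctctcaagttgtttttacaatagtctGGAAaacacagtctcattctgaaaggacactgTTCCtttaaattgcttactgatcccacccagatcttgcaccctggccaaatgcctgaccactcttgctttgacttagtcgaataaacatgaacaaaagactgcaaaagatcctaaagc
COL17A1: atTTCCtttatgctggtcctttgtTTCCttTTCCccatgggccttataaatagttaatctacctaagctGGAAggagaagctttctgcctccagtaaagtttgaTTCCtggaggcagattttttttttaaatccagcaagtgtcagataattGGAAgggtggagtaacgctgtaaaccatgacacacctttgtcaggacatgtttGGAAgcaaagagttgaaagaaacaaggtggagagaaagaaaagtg

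The windows hold 1, 2 and 7 such cores. The RefSeq promoter table holds 32 of the 44 members. These 32 have 44 windows, as a gene can have more than 1. On either strand, GGAA stood in 92.7% of all 35116 windows of this length and in 40 of those 44. AGGAAG stood in 28.7% and in 10, and CCGGAAGT in 3.42% and in 0. GGAA lies inside both longer motifs. A match describes the letters of the window and is not a binding site.

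Of the 8 basement membrane collagens tested, 2 rose and 3 fell with ETV4AAA in 22Rv1, where 17.4% of all tested genes rose and 14.4% fell. The 6 type IV genes lie as head-to-head pairs, each pair reading outwards from a shared stretch of DNA. Their RefSeq starts are 127 bases apart for COL4A1 and COL4A2 on chromosome 13, 419 for COL4A3 and COL4A4 on chromosome 2 and 380 for COL4A5 and COL4A6 on chromosome X. COL4A1 and COL4A2 form the type IV network of nearly all basement membranes, and the others form networks of kidney, lung, eye and smooth muscle. The stretch between the first pair's starts (chr13:110307158-110307283, plus strand, the direction of COL4A2) and the 250 bases before COL4A3 (chr2:227164374-227164623) and before COL4A5 (chrX:108439588-108439837), both on the plus strand, are shown from GRCh38.p14 since the pairs gave different calls in 22Rv1. GGAA or TTCC is in capitals.

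COL4A1 and COL4A2: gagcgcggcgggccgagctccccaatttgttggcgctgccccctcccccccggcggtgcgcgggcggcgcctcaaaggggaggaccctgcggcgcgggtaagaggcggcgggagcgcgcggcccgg
COL4A3: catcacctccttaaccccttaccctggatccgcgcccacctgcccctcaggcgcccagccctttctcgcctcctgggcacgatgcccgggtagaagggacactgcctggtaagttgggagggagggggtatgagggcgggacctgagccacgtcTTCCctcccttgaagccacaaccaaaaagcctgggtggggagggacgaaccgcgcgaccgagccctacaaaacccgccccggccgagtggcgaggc
COL4A5: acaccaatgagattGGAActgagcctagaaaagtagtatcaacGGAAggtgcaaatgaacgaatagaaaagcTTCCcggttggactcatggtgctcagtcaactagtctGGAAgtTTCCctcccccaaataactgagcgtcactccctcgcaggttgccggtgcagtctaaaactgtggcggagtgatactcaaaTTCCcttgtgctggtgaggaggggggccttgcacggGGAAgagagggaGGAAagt

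The cores number 0 in the 126 bases between COL4A1 and COL4A2, 1 in the 250 bases before COL4A3 and 8 in the 250 before COL4A5. The first stretch is shorter, so its number cannot be set beside the others. Whether the cores bear on the calls was not tested. In 22Rv1 the COL4A5 and COL4A6 pair rose with ETV4AAA. COL4A5 had 26.1 and 22.4 CPM with eGFP, 25.0 and 33.2 with ETV4WT and 56.0 and 46.8 with ETV4AAA (log2 1.08 ± 0.16, adjusted p = 2.95e-04) and COL4A6 1.42 and 0.947 CPM with eGFP, 1.52 and 1.94 with ETV4WT and 3.11 and 2.04 with ETV4AAA (log2 1.12 ± 0.25, adjusted p = 0.00467). The COL4A6 call ended without 22Rv1 ETV4AAA replicate 1 or 22Rv1 eGFP replicate 2 (log2 0.77 to 0.84, adjusted p 0.0657 to 0.0747). Both stayed below PC3, where COL4A5 had 126 and 129 CPM with eGFP, 120.3 and 111 with ETV4WT and 136 and 115 with ETV4AAA and COL4A6 38.3 and 37.8 CPM with eGFP, 45.7 and 40.3 with ETV4WT and 43.6 and 37.2 with ETV4AAA, with no call between the PC3 groups.

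The COL4A3 and COL4A4 pair fell with ETV4AAA in 22Rv1. COL4A3 had 4.04 and 4.14 CPM with eGFP, 2.85 and 3.41 with ETV4WT and 2.55 and 2.14 with ETV4AAA (log2 -0.80 ± 0.19, adjusted p = 0.00787), and COL4A4 1.33 and 1.69 CPM with eGFP, 0.914 and 1.41 with ETV4WT and 0.865 and 0.617 with ETV4AAA (log2 -1.02 ± 0.30, adjusted p = 0.0207). The COL4A3 call ended without 22Rv1 ETV4AAA replicate 2 (log2 -0.70, adjusted p 0.0548), and the COL4A4 call without 22Rv1 ETV4AAA replicate 2 or 22Rv1 eGFP replicate 2 (log2 -0.86 to -0.82, adjusted p 0.124 to 0.143) and in DESeq2's Wald test (log2 -1.01, adjusted p = 0.0620). In PC3, COL4A3 had 0.443 and 0.408 CPM with eGFP, 0.725 and 1.05 with ETV4WT and 0.699 and 0.622 with ETV4AAA and rose with ETV4WT (log2 1.05 ± 0.26, adjusted p = 0.0141), a call that ended without either PC3 eGFP library, PC3 ETV4WT replicate 2 or PC3 ETV4WT replicate 2 and ETV4AAA replicate 2 together (log2 0.77 to 1.11, adjusted p 0.0701 to 0.128). COL4A4 had 0.423 and 0.408 CPM with eGFP, 0.650 and 0.502 with ETV4WT and 0.185 and 0.335 with ETV4AAA there and passed in no PC3 comparison.

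The COL4A1 and COL4A2 pair was not at like levels in 22Rv1. COL4A1 had 61.8 and 61.3 CPM with eGFP, 75.1 and 58.7 with ETV4WT and 75.5 and 55.5 with ETV4AAA in PC3, and in 22Rv1 1 count in the eGFP libraries, 0 CPM in both libraries with ETV4WT and 0.111 and 0 CPM with ETV4AAA. The ratio of 5922 PC3 eGFP counts to that 1 was 5991 (95% interval 1075 to 236654, counting error only). COL4A2 had 89.0 and 97.9 CPM with eGFP, 94.6 and 56.5 with ETV4WT and 103 and 56.3 with ETV4AAA in PC3 and 1.70 and 1.46 CPM with eGFP, 1.50 and 2.08 with ETV4WT and 1.18 and 0.878 with ETV4AAA in 22Rv1, a line difference of -5.88 ± 0.36, adjusted p = 2.72e-08. Neither passed between constructs in either line. COL4A2 was lower in replicate 2 than in replicate 1 of both PC3 ETV4WT and PC3 ETV4AAA.

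COL7A1, the anchoring fibril collagen of skin, had 12.8 and 6.81 CPM with eGFP, 10.1 and 12.6 with ETV4WT and 4.39 and 3.80 with ETV4AAA in 22Rv1 and 1.35 and 1.31 CPM with eGFP, 0.873 and 0.362 with ETV4WT and 0.719 and 0.502 with ETV4AAA in PC3. It fell with ETV4AAA in 22Rv1 (log2 -1.26 ± 0.32, adjusted p = 0.0102), a call that ended without either 22Rv1 ETV4AAA library or 22Rv1 eGFP replicate 1 (log2 -1.39 to -0.76, adjusted p 0.0566 to 0.141). COL18A1, the basement membrane zone collagen from which endostatin is cut, had 7.45 and 8.57 CPM with eGFP, 6.67 and 2.51 with ETV4WT and 5.57 and 1.82 with ETV4AAA in PC3 and 0.431 and 0.206 CPM with eGFP, 0.261 and 0.470 with ETV4WT and 0.222 and 0.142 with ETV4AAA in 22Rv1. It was lower in 22Rv1 eGFP (log2 -4.64 ± 0.63, adjusted p = 3.12e-05; -5.27 without 22Rv1 eGFP replicate 1) and passed in no other comparison. Its exons overlap those of SLC19A1, on the opposite strand, by 1401 bases, so its counts are uncertain.

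Transmembrane collagens are single-pass membrane proteins whose collagen domains stand outside the cell. COL17A1 (chr10:104031286-104085957, minus strand), the hemidesmosome collagen, was the member called higher with both constructs in PC3 that exceeded 1 CPM. Its libraries held 0.684 and 0.645 CPM with eGFP, 4.24 and 2.89 with ETV4WT and 7.19 and 5.26 with ETV4AAA, with no overlap between the 3 groups. The log2 change was 2.42 ± 0.28, adjusted p = 8.32e-05 with ETV4WT and 3.22 ± 0.28, adjusted p = 8.34e-05 with ETV4AAA. ETV4AAA exceeded ETV4WT by 0.80 ± 0.23, adjusted p = 0.0466, a call that ended without either PC3 ETV4AAA library, PC3 ETV4WT replicate 2 or PC3 ETV4WT replicate 2 and ETV4AAA replicate 2 together (log2 0.56 to 0.97, adjusted p 0.0532 to 0.263) and under upper-quartile factors (log2 0.69, adjusted p = 0.0713), DESeq2's Wald test (log2 0.81, adjusted p = 0.0859) and a fit of PC3 on its own (log2 0.78, adjusted p = 0.119). In 22Rv1 COL17A1 had 0.103 and 0.124 CPM with eGFP, 0.0435 and 0.0817 with ETV4WT and 0.444 and 0.712 with ETV4AAA. It rose with ETV4AAA (log2 2.32 ± 0.46, adjusted p = 0.00231), and its change with ETV4WT was -0.81 ± 0.71, adjusted p = 0.649.

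COL13A1, a transmembrane collagen of cell junctions and the neuromuscular synapse, had 42.0 and 43.8 CPM with eGFP, 68.1 and 43.5 with ETV4WT and 84.2 and 54.1 with ETV4AAA in PC3, with no call between the PC3 groups, and 0.123 and 0 CPM with eGFP, 0.0435 and 0.163 with ETV4WT and 0.688 and 0.356 with ETV4AAA in 22Rv1. Its rise with ETV4AAA in 22Rv1 (log2 3.04 ± 0.80, adjusted p = 0.0124) ended without 22Rv1 ETV4AAA replicate 1 or 22Rv1 eGFP replicate 2 (log2 2.05 to 2.46, adjusted p 0.0986 to 0.124) and was 7.62 without 22Rv1 eGFP replicate 1 and 2.05 without 22Rv1 eGFP replicate 2. COL25A1, a transmembrane collagen of neurons, had 1.63 and 1.98 CPM with eGFP, 4.59 and 4.52 with ETV4WT and 1.64 and 1.67 with ETV4AAA in PC3 and rose with ETV4WT (log2 1.34 ± 0.25, adjusted p = 0.00256). With ETV4AAA its PC3 change was -0.12 ± 0.27, adjusted p = 0.864, and ETV4AAA was below ETV4WT by -1.46 ± 0.26, adjusted p = 0.00305. In 22Rv1 it had 0.492 and 0.782 CPM with eGFP, 0.501 and 1.02 with ETV4WT and 0.688 and 0.712 with ETV4AAA and passed in no comparison of constructs. Summed over the class, including the untested COL23A1, transmembrane collagens held 45.4 ± 1.50 CPM (mean ± SD, n = 2) in PC3 eGFP and 0.874 ± 0.162 in 22Rv1 eGFP.

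**Figure D5:**
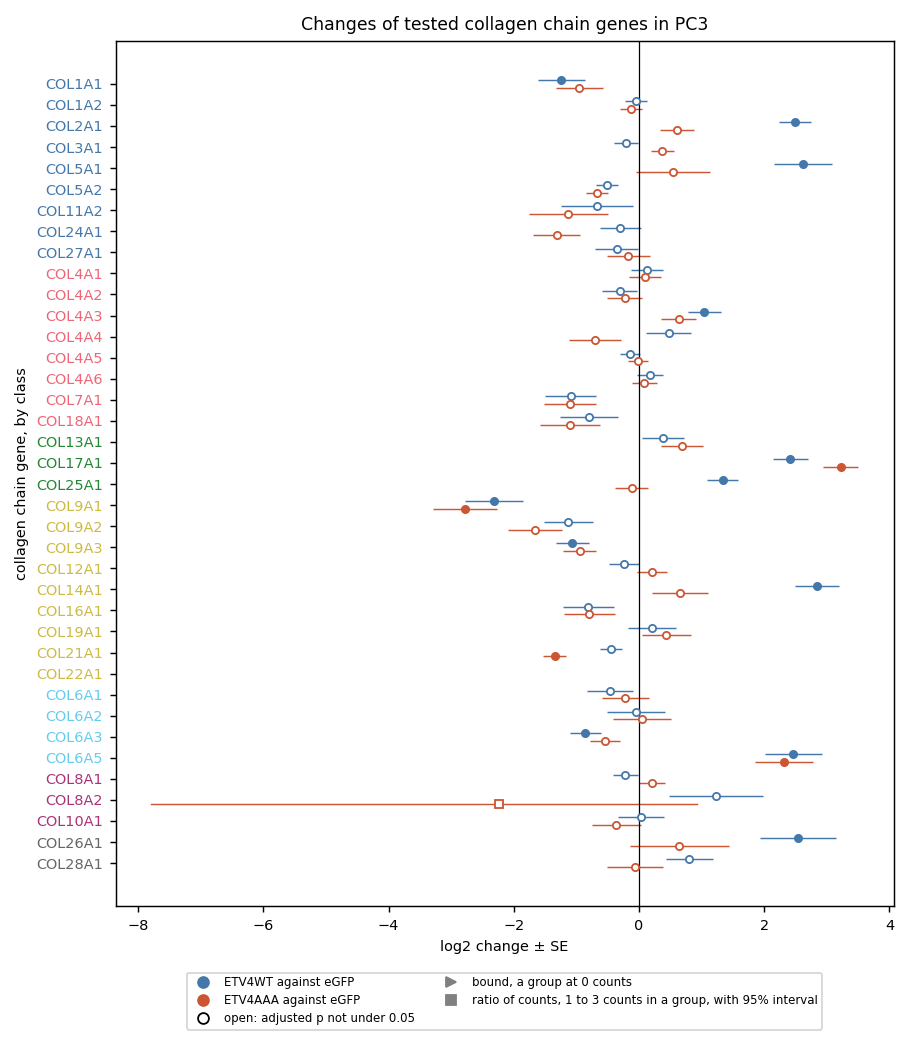
Log2 change against eGFP of the tested collagen chain genes in PC3, ± standard error, drawn as in the plot for 22Rv1. COL17A1 is filled for both constructs, at 2.42 with ETV4WT and 3.22 with ETV4AAA, and COL2A1, COL5A1, COL14A1 and COL25A1 are filled for ETV4WT and open for ETV4AAA.

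Type VI collagen forms beaded filaments next to basement membranes. Of its 4 tested chains, 3 rose with ETV4AAA in 22Rv1, where 17.4% of all tested genes did. COL6A3 had 0.369 and 0.185 CPM with eGFP, 0.348 and 0.408 with ETV4WT and 4.57 and 2.68 with ETV4AAA (log2 3.70 ± 0.35, adjusted p = 6.95e-06), COL6A2 0.123 and 0.0412 CPM with eGFP, 0.218 and 0.367 with ETV4WT and 2.55 and 2.18 with ETV4AAA (log2 4.81 ± 0.83, adjusted p = 8.77e-04) and COL6A1 3.18 and 1.98 CPM with eGFP, 3.74 and 4.67 with ETV4WT and 8.12 and 5.03 with ETV4AAA (log2 1.35 ± 0.41, adjusted p = 0.0255). The COL6A2 change was 5.74 without 22Rv1 eGFP replicate 1 and 4.21 without 22Rv1 eGFP replicate 2, and the COL6A1 call ended without 22Rv1 ETV4AAA replicate 1 or either 22Rv1 eGFP library (log2 0.95 to 1.71, adjusted p 0.0543 to 0.226). In PC3 these chains were higher, COL6A1 with 55.3 and 62.4 CPM with eGFP, 56.2 and 29.4 with ETV4WT and 68.9 and 32.3 with ETV4AAA, COL6A2 with 17.2 and 20.4 CPM with eGFP, 26.9 and 9.49 with ETV4WT and 28.5 and 10.4 with ETV4AAA and COL6A3 with 16.5 and 16.6 CPM with eGFP, 9.81 and 8.48 with ETV4WT and 13.0 and 9.78 with ETV4AAA. COL6A3 fell with ETV4WT in PC3 (log2 -0.86 ± 0.25, adjusted p = 0.0262), a call that ended without either PC3 eGFP library, PC3 ETV4WT replicate 2 or PC3 ETV4WT replicate 2 and ETV4AAA replicate 2 together (log2 -0.86 to -0.67, adjusted p 0.0968 to 0.135). For COL6A1 and COL6A2, replicate 2 was lower than replicate 1 in both PC3 ETV4WT and PC3 ETV4AAA. COL6A5, a chain that can take the place of COL6A3, had 0 counts in all 6 22Rv1 libraries and 0.0805 and 0.107 CPM with eGFP, 0.613 and 0.442 with ETV4WT and 0.452 and 0.502 with ETV4AAA in PC3. COL6A5 rose in PC3 with ETV4WT (log2 2.47 ± 0.46, adjusted p = 0.00478) and with ETV4AAA (log2 2.31 ± 0.47, adjusted p = 0.0313). It passed the filter on low counts only through these groups, where it is high, so its calls are no separate support. The ETV4WT call ended without PC3 eGFP replicate 1 (log2 2.27, adjusted p 0.0550), and the ETV4AAA call without PC3 ETV4AAA replicate 2, either PC3 eGFP library or PC3 ETV4WT replicate 2 and ETV4AAA replicate 2 together (log2 2.13 to 2.53, adjusted p 0.146 to 0.273) and in DESeq2's Wald test (log2 2.43, adjusted p = 0.0948).

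COL8A1, a hexagonal network chain of vessel walls and the corneal back membrane, had 0.964 and 0.556 CPM with eGFP, 0.435 and 0.653 with ETV4WT and 10.5 and 8.42 with ETV4AAA in 22Rv1 and 26.1 and 27.5 CPM with eGFP, 24.2 and 21.9 with ETV4WT and 31.3 and 30.4 with ETV4AAA in PC3. It rose with ETV4AAA in 22Rv1 (log2 3.63 ± 0.25, adjusted p = 4.75e-07), to 35.3% of the PC3 eGFP level. COL10A1, the chain of hypertrophic cartilage, had a mean of at most 0.309 CPM in any group and passed in no comparison.

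Several chains that rose with ETV4AAA in 22Rv1 are high in PC3, so the levels of PC3 markers are given beside them. The summed level of 8 genes high in PC3 was 182 ± 6.79 CPM (mean ± SD, n = 2) in 22Rv1 eGFP, 308 ± 1.79 with ETV4WT and 519.9 ± 3.10 with ETV4AAA, against 1539.6 ± 20.5 in PC3 eGFP, and CD44 made up most of it in 22Rv1. AXL was 0.0222 and 0.0237 CPM in 22Rv1 ETV4AAA. From 22Rv1 eGFP to 22Rv1 ETV4AAA, CAV1 went from 2.32 and 3.85 CPM to 10.3 and 11.2. CAV2 went from 0.369 and 0.556 to 1.84 and 1.80, and ANXA1 from 0.841 and 0.844 to 1.95 and 2.59. EGFR went the other way, from 43.5 and 41.6 to 39.2 and 34.8. The summed level of 8 genes chosen as 22Rv1 markers was 2554 ± 6.17 CPM in 22Rv1 eGFP, 2613 ± 83.6 with ETV4WT and 1868 ± 59.2 with ETV4AAA. Of the 14 chains with a mean of at least 10 CPM in PC3 eGFP, the level in 22Rv1 ETV4AAA was 0.0901% of it for COL4A1, 0.174% for COL1A2, 4.86% for COL12A1, 21.9% for COL6A3, 35.3% for COL8A1, 40.3% for COL4A5, 49.3% for COL27A1 and 59.4% for COL1A1, the last being the highest of the 14. The share thus differed widely between chains. It already did so in 22Rv1 eGFP, at 0.0167% for COL4A1, 0.00863% for COL1A2, 0.503% for COL12A1 and 1.67% for COL6A3. It was 2.84% there for COL8A1, 19.0% for COL4A5, 75.7% for COL27A1 and 36.0% for COL1A1. From 22Rv1 eGFP to 22Rv1 ETV4AAA, the share went from 5.67% to 3.38% for COL5A2 and from 1.69% to 1.10% for COL4A2. It went from 0.143% to 1.22% for COL13A1, 3.11% to 6.77% for COL4A6, 4.38% to 11.2% for COL6A1 and 0.437% to 12.6% for COL6A2. Of the 14 chains, COL4A1, COL4A2, COL27A1 and COL1A1 were not called between ETV4AAA and eGFP in 22Rv1, and COL5A2 was called lower. The cause of the unequal shares was not tested.

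With the control vector alone, 21 of 38 tested members were lower in 22Rv1 eGFP than in PC3 eGFP and 11 were higher, where 36.0% and 34.9% of all genes were. ETV4 itself was 116 and 126 CPM in PC3 eGFP and 31.2 and 24.9 in 22Rv1 eGFP. The members' median log2 difference was -1.48, and that of all genes was 0. With upper-quartile factors the median of all genes moved to 0.32, and the share of higher genes among all called genes from 49.2% to 59.4%. All 3 tested transmembrane chains and all 4 tested type VI chains were lower in 22Rv1. Of these, COL6A5 rests on 9 counts in PC3 eGFP against 0 in 22Rv1 eGFP and was tested only through PC3 ETV4WT and PC3 ETV4AAA. Those higher in 22Rv1 included COL14A1 (log2 6.25 ± 0.32, adjusted p = 5.67e-09), COL28A1 (log2 4.53 ± 0.26, adjusted p = 1.72e-08), COL4A3 (log2 3.26 ± 0.24, adjusted p = 1.22e-07) and COL7A1 (log2 2.88 ± 0.35, adjusted p = 1.31e-05). COL28A1 and COL8A2, among those higher, passed the filter on low counts only through 22Rv1 groups. COL4A1, among those lower, passed it only through PC3 groups. Each was thus tested only through the line where it is high, so these line calls are no separate support.

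Between the ETV4AAA and ETV4WT libraries of 22Rv1, the members with the largest differences, COL22A1 apart, were COL2A1 (log2 5.05 ± 0.25), COL21A1 (4.83 ± 0.22), COL8A1 (4.11 ± 0.26), COL16A1 (3.81 ± 0.37), COL28A1 (3.70 ± 0.18) and COL12A1 (3.66 ± 0.33), all higher with ETV4AAA. COL12A1 was 3.03 without 22Rv1 ETV4WT replicate 1 and 4.81 without 22Rv1 ETV4WT replicate 2. ETV4 itself differed between these groups by -0.37 ± 0.33, adjusted p = 0.471. COL5A2 (log2 -0.62 ± 0.19, adjusted p = 0.0349) and COL7A1 (log2 -1.47 ± 0.32, adjusted p = 0.00543) were lower. The COL5A2 call ended without 22Rv1 ETV4AAA replicate 2 or either 22Rv1 ETV4WT library (log2 -0.70 to -0.35, adjusted p 0.0878 to 0.251), and the COL7A1 call without 22Rv1 ETV4AAA replicate 2 or 22Rv1 ETV4WT replicate 2 (log2 -1.39 to -1.32, adjusted p 0.0565 to 0.0652). COL3A1, COL11A2, COL13A1, COL19A1 and COL6A2 were also called higher, and each of these calls ended without 1 library of these groups: COL3A1 without any 1 of the 4 (adjusted p 0.105 to 0.217), COL13A1 likewise (0.0519 to 0.287), COL11A2 without ETV4AAA replicate 1 or ETV4WT replicate 2 (0.0632 and 0.0774), COL19A1 without either ETV4AAA library or ETV4WT replicate 1 (0.0561 to 0.165) and COL6A2 without ETV4WT replicate 1 (0.0866). The COL3A1 call ended also with a replicate block (0.0564), upper-quartile factors, no low-count filter, 22Rv1 alone and DESeq2's Wald test (up to 0.111), and the COL5A2 call with 22Rv1 alone (log2 -0.57, adjusted p = 0.0520). In PC3, the ETV4 difference between ETV4AAA and ETV4WT was 0.03 ± 0.33, adjusted p = 1.00. There COL2A1 (log2 -1.88 ± 0.24), COL14A1 (-2.19 ± 0.33), COL5A1 (-2.07 ± 0.44), COL25A1 (-1.46 ± 0.26) and COL21A1 (-0.90 ± 0.18) were lower with ETV4AAA. The COL5A1 call ended without PC3 ETV4AAA replicate 2, PC3 ETV4WT replicate 1 or PC3 ETV4WT replicate 2 and ETV4AAA replicate 2 together (log2 -1.98 to -1.77, adjusted p 0.0503 to 0.0710) and the COL21A1 call without PC3 ETV4AAA replicate 1 (log2 -0.76, adjusted p 0.0771).

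The difference of the effects between the lines was tested as an interaction. For ETV4AAA, 16 members had a more positive change in 22Rv1 and 1 a more negative one, where 9.48% and 6.73% of all genes did. For ETV4WT, 4 were more positive and 5 more negative, where 4.92% and 7.57% of all genes were, and upper-quartile factors moved the share of higher genes among all called from 39.4% to 24.4%. The 9 members called for ETV4WT were 3 without either PC3 eGFP library or without 22Rv1 ETV4WT replicate 1, 4 without 22Rv1 eGFP replicate 2, and 5 without 22Rv1 eGFP replicate 1 or PC3 ETV4WT replicate 2. The ETV4AAA effect on COL2A1 was larger in 22Rv1 by 7.68 ± 0.38, adjusted p = 1.17e-07, that on COL21A1 by 6.94 ± 0.30, adjusted p = 4.99e-08 and that on COL9A2 by 6.41 ± 0.49, adjusted p = 3.22e-06. For COL17A1 the ETV4AAA effects differed by -0.90 ± 0.62, adjusted p = 0.365, which is not a call. ETV4 rose in 22Rv1 more than in PC3, by 3.52 ± 0.48 with ETV4WT and 3.12 ± 0.48 with ETV4AAA on the log2 scale, so line and ETV4 level cannot be told apart in this difference.

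Genes that act on collagen were counted in 4 lists. In 22Rv1 with ETV4AAA, 10 of 20 tested folding and modification genes rose, 6 of 12 processing and cross-linking genes, 7 of 11 collagen receptors and 4 of 6 collagen-degrading enzymes, where 17.4% of all genes rose. In edgeR's test and in DESeq2's 0 genes of the lists fell, and at an unadjusted p under 0.05 it was 1 folding gene, 1 processing gene, 0 receptors and 0 enzymes. Among the folding genes, SERPINH1, the chaperone HSP47, had 24.1 and 20.2 CPM with eGFP, 28.2 and 29.2 with ETV4WT and 105 and 88.9 with ETV4AAA (log2 2.13 ± 0.22, adjusted p = 1.40e-05). P4HA3, a prolyl hydroxylase subunit, and CRTAP, which acts in prolyl hydroxylation, rose by 2.32 ± 0.24 and 0.96 ± 0.10. P4HB, the partner subunit and the most abundant uncalled gene of the list, changed by 0.28 ± 0.19, adjusted p = 0.313. Among the cross-linking genes, the lysyl oxidase LOXL4 had 0.0615 and 0.124 CPM with eGFP, 0.0871 and 0.449 with ETV4WT and 73.7 and 65.2 with ETV4AAA (log2 9.51 ± 0.56, adjusted p = 1.14e-07). LOX rose by 1.62 ± 0.18 and the procollagen protease TLL1 by 2.45 ± 0.16.

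Of the receptors in 22Rv1, ITGA10, an integrin subunit of cartilage cells that binds type II collagen, had 0.287 and 0.288 CPM with eGFP, 0.457 and 0.265 with ETV4WT and 7.52 and 6.55 with ETV4AAA (log2 4.60 ± 0.27, adjusted p = 1.16e-07). MRC2, which takes up collagen fragments, had 3.77 and 2.90, 4.31 and 4.61 and 58.6 and 40.2 CPM (log2 3.89 ± 0.47, adjusted p = 5.51e-05), while the collagen-activated kinase DDR1 changed by 0.44 ± 0.26, adjusted p = 0.232. CTSK and MMP2, which cut collagen, rose by 2.25 ± 0.23 and 4.61 ± 0.51. With ETV4WT in 22Rv1, TLL1 (log2 1.17 ± 0.16, adjusted p = 0.00278) and CD44 (log2 1.02 ± 0.11, adjusted p = 5.64e-04) were the only genes of the 4 lists that passed edgeR's test. They were 1 of 12 processing genes and 1 of 11 receptors, where 1.06% of all tested genes rose and 0.439% fell. In DESeq2's Wald test MMP1, a collagenase, passed as lower too. Its log2 change was -2.16 ± 0.55, adjusted p = 0.0899 in edgeR, and it was named after its value was seen.

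In PC3 with ETV4WT, 1 folding gene rose and 1 fell of 20, 1 and 1 of 12 processing genes, 1 and 1 of 11 receptors and 4 and 0 of 6 degrading enzymes, of which 0 fell at an unadjusted p under 0.05 or by DESeq2 either. Of all tested genes, 12.7% rose and 10.7% fell. COLGALT2, which adds galactose to collagen, had 0.664 and 0.580 CPM with eGFP, 2.75 and 3.18 with ETV4WT and 0.801 and 0.646 with ETV4AAA (log2 2.24 ± 0.19, adjusted p = 9.79e-06 for ETV4WT). The folding gene that fell was PLOD1 (log2 -0.84). Of the processing genes LOXL4 rose (log2 3.20) and TLL1 fell (log2 -0.62). The PLOD1 and TLL1 calls ended with upper-quartile factors and with PC3 alone. That of LOXL4 ended without any single PC3 eGFP or PC3 ETV4WT library. The 2 discoidin receptors went opposite ways with ETV4WT, DDR2 by 2.13 ± 0.21, adjusted p = 2.74e-05 and DDR1 by -1.35 ± 0.27, adjusted p = 0.00344. Of the enzymes, the collagenase MMP13 had 85.9 and 81.8, 165 and 190.4 and 107 and 126 CPM (log2 1.08 ± 0.19, adjusted p = 0.00234 for ETV4WT). MMP2 rose with ETV4WT by log2 3.55, which was 4.73 without PC3 eGFP replicate 1 and 2.94 without PC3 eGFP replicate 2. MMP14 rose with ETV4WT by 0.89, a call that ended without either PC3 eGFP library or PC3 ETV4WT replicate 1. With ETV4AAA in PC3, 1 of 12 processing genes, 1 of 11 receptors and 1 of 6 degrading enzymes rose, and 0 fell. Of the 20 folding genes 0 passed. At an unadjusted p under 0.05, 1 folding gene, 3 processing genes, 2 receptors and 0 enzymes were lower. Of all tested genes, 2.45% rose and 1.24% fell with ETV4AAA. The list genes that passed were ADAMTS3, ITGA2 and MMP14, with log2 changes of 0.61 ± 0.14, 0.60 ± 0.13 and 0.99 ± 0.22. Each of these 3 calls ended without either PC3 eGFP library, with adjusted p from 0.196 to 0.299. They ended also with PC3 alone (adjusted p 0.0755 to 0.132). Those of ADAMTS3 and ITGA2 ended without PC3 ETV4AAA replicate 2 and that of MMP14 without ETV4AAA replicate 1, and that of ADAMTS3 without both replicate 2 libraries of the constructs (log2 0.54, adjusted p = 0.0802).

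The tested protein-coding genes whose log2(CPM + 1) over the 12 libraries was most like that of the leading chain of a class are given as a description, without a test, since the libraries share lines and constructs. For COL2A1 they were ACSS2 (Pearson r = 0.986), ANGPT4 (Pearson r = 0.985), FBXO32 (Pearson r = 0.981), for COL4A5 TANC1 (Pearson r = 0.995), FOSL2 (Pearson r = 0.995), SPTBN1 (Pearson r = 0.994) and for COL13A1 CDCP1 (Pearson r = 0.998), NRG2 (Pearson r = 0.998), SHANK1 (Pearson r = 0.998). ANGPT4, an angiopoietin, had 0.164 and 0.0206 CPM in 22Rv1 eGFP and 24.6 and 20.8 in 22Rv1 ETV4AAA.

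The remaining members were low. COL19A1, a FACIT, reached a group mean of at most 0.679 CPM, was lower in 22Rv1 eGFP than in PC3 eGFP (log2 -1.77 ± 0.49, adjusted p = 0.00652) and passed against eGFP in neither line. That line call ended without 22Rv1 eGFP replicate 1 (log2 -1.14, adjusted p 0.0693), and with a replicate block the difference was -2.42. COL26A1 reached at most 0.380 CPM and rose with ETV4WT in PC3 (log2 2.54 ± 0.61, adjusted p = 0.0103), a call that ended without PC3 eGFP replicate 2 or PC3 ETV4WT replicate 1 (log2 2.13 to 2.18, adjusted p 0.0550 to 0.0999). COL8A2 reached at most 0.310 CPM and was higher in 22Rv1 eGFP than in PC3 eGFP (log2 1.93 ± 0.69, adjusted p = 0.0244), a call that ended without either PC3 eGFP library or either 22Rv1 eGFP library (log2 1.62 to 2.27, adjusted p 0.0530 to 0.136), with a replicate block (log2 1.50, adjusted p = 0.134) and in DESeq2's Wald test (log2 2.06, adjusted p = 0.0618). COL24A1 reached at most 0.881 CPM and passed nowhere. The 6 untested members had highest group means of 0.201 CPM for COL11A1, 0.176 for COL6A6, 0.125 for COL23A1, 0.0514 for COL15A1, 0.0239 for COL20A1 and 0.0186 for COL5A3. Of the 38 tested members, COL22A1 and COL8A2 had 10 counts in both libraries of 22Rv1 ETV4AAA alone. COL6A5 had them in PC3 ETV4WT and PC3 ETV4AAA alone. COL11A2 and COL28A1 had them in 22Rv1 groups only and COL4A1 in PC3 groups only. These 6 members thus had them in groups of 1 line only.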

How the data were processed

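The data are 12 polyA-selected RNA-seq libraries of sorted PC3 and 22Rv1 cells. The authors deposited 1 table of raw counts per Ensembl gene. Per the submitters' processing notes, FastQC 0.11.9, STAR 2.5.3a and GRCh38 were used. Which tool counted, whether it used strand and from which gene models is not stated in any source used here, so overlapping genes on opposite strands are uncertain. Gene symbols, positions and exon lengths came from GENCODE 29, which holds 99.55% of the identifiers.

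Counts were tested in R 4.3.3 with edgeR 4.0.16 (quasi-likelihood test, TMM factors, filterByExpr by group, 1 mean per group over all 12 libraries, 6 residual degrees of freedom, common biological coefficient of variation 0.1495). P-values were adjusted by Benjamini-Hochberg over all 23238 genes tested, with a threshold of 0.05. The 9 comparisons were the 3 within each line, the lines with eGFP, and an interaction for each construct. CPM used the TMM factors. Where a group had 0 counts a floor of 3 was used, and with 1 to 3 counts a ratio with an exact 95% interval. Intervals and floors cover counting error only. The step was checked on simulated counts.

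The members and lists were chosen with earlier results of these data known. Every called member whose mean reached 1 CPM in some group is given in every library (COL22A1 and COL4A1 in part as counts). Each list of genes that act on collagen gives at most 3 called genes per comparison, those with the lowest adjusted p. Marker genes were not picked by this rule. The most abundant uncalled gene is given only for the folding genes (P4HB) and the receptors (DDR1), each for 1 comparison. For the other lists and comparisons it is not given, so the genes named from the lists are mostly called ones. Promoter sequences are RefSeq's (GRCh38.p14). Tried as alternatives were no low-count filter, upper-quartile or DESeq2 size factors, the Wald test of DESeq2 1.42.0, each line alone, a replicate block and each library left out. Single-cell libraries that the labels also describe were not analysed here.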

Additional observations from a re-analysis of the deposited data

Results flagged for a closer look

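The effect of a construct against eGFP differed between 22Rv1 and PC3, by the interaction term of edgeR's quasi-likelihood test with Benjamini-Hochberg adjustment, for 17 collagen chain genes with ETV4AAA and 9 with ETV4WT. Values are the 22Rv1 log2 change minus the PC3 log2 change, ± standard error. For ETV4AAA, the FACITs with a difference were COL21A1 (6.94 ± 0.30, adjusted p = 4.99e-08), COL9A2 (6.41 ± 0.49, adjusted p = 3.22e-06), COL16A1 (5.02 ± 0.57, adjusted p = 8.13e-05), COL12A1 (3.06 ± 0.40, adjusted p = 2.73e-04), COL9A1 (2.92 ± 0.57, adjusted p = 0.00425), COL14A1 (2.89 ± 0.53, adjusted p = 0.00269) and COL9A3 (1.20 ± 0.34, adjusted p = 0.0337). The fibrillar chains were COL2A1 (7.68 ± 0.38, adjusted p = 1.17e-07), COL1A2 (4.34 ± 0.59, adjusted p = 3.62e-04) and COL11A2 (2.55 ± 0.76, adjusted p = 0.0391), where COL1A2 rests on 3 counts in 22Rv1 eGFP. Of the other classes, COL6A2 (4.75 ± 0.99, adjusted p = 0.00597), COL6A3 (4.24 ± 0.43, adjusted p = 3.45e-05), COL28A1 (3.83 ± 0.51, adjusted p = 2.75e-04), COL8A1 (3.43 ± 0.32, adjusted p = 1.74e-05), COL4A5 (1.10 ± 0.23, adjusted p = 0.00550) and COL4A6 (1.04 ± 0.32, adjusted p = 0.0485) were more positive in 22Rv1. COL4A3 (-1.43 ± 0.34, adjusted p = 0.0130) was more negative in 22Rv1. Some ETV4AAA calls ended when 1 library was left out. COL11A2 lost its call without either PC3 ETV4AAA library, PC3 eGFP replicate 2, either 22Rv1 ETV4AAA library or either 22Rv1 eGFP library (log2 1.71 to 2.72, adjusted p 0.0573 to 0.292). For COL14A1 this was so without PC3 eGFP replicate 2 (log2 2.34, adjusted p 0.0618), for COL4A3 without PC3 eGFP replicate 2 (log2 -1.37, adjusted p 0.0642) and for COL6A2 without 22Rv1 eGFP replicate 2 (log2 4.19, adjusted p 0.0576). COL4A6 was no longer called without PC3 ETV4AAA replicate 2, either PC3 eGFP library, 22Rv1 ETV4AAA replicate 1, 22Rv1 eGFP replicate 2 or PC3 ETV4WT replicate 2 and ETV4AAA replicate 2 together (log2 0.71 to 1.05, adjusted p 0.0620 to 0.235), and COL9A3 was not without either PC3 ETV4AAA library, either PC3 eGFP library, 22Rv1 ETV4AAA replicate 1 or 22Rv1 eGFP replicate 2 (log2 0.89 to 1.28, adjusted p 0.0633 to 0.137). COL11A2 also lost its call with a replicate block (log2 2.54, adjusted p = 0.0518), and COL4A6 with DESeq2 size factors (log2 0.98, adjusted p = 0.0528) and upper-quartile factors (log2 0.94, adjusted p = 0.0559). The COL1A2 difference was 8.01 without 22Rv1 eGFP replicate 1 and 3.40 without 22Rv1 eGFP replicate 2.

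For ETV4WT, COL9A2 (2.83 ± 0.46, adjusted p = 0.00190), COL9A1 (1.99 ± 0.53, adjusted p = 0.0296), COL9A3 (1.32 ± 0.34, adjusted p = 0.0273) and COL21A1 (1.21 ± 0.36, adjusted p = 0.0485) were more positive in 22Rv1, and COL4A3 (-1.43 ± 0.33, adjusted p = 0.0142), COL5A1 (-2.52 ± 0.58, adjusted p = 0.0145), COL14A1 (-2.63 ± 0.42, adjusted p = 0.00173), COL26A1 (-3.01 ± 0.77, adjusted p = 0.0256) and COL17A1 (-3.23 ± 0.77, adjusted p = 0.0185) more negative. COL9A2 and COL14A1 kept their calls when each library was left out in turn. The other 7 each lost the call without at least 1 library. COL17A1 lost it without either 22Rv1 eGFP library or 22Rv1 ETV4WT replicate 1 (log2 -3.38 to -2.91, adjusted p 0.0722 to 0.131). COL21A1 lost it without either PC3 eGFP library, either PC3 ETV4WT library, either 22Rv1 eGFP library, either 22Rv1 ETV4WT library or PC3 ETV4WT replicate 2 and ETV4AAA replicate 2 together (log2 0.92 to 1.41, adjusted p 0.0508 to 0.259), and also with no low-count filter, a replicate block, either other scaling and DESeq2's Wald test (adjusted p 0.0596 to 0.135). For COL26A1 the call ended without either PC3 eGFP library, PC3 ETV4WT replicate 1, either 22Rv1 eGFP library or either 22Rv1 ETV4WT library (log2 -3.51 to -2.59, adjusted p 0.0614 to 0.130), and for COL4A3 it ended without either PC3 eGFP library or PC3 ETV4WT replicate 2 (log2 -1.49 to -1.15, adjusted p 0.0586 to 0.0785). COL5A1 was not called without either PC3 eGFP library or either 22Rv1 ETV4WT library (log2 -2.72 to -2.31, adjusted p 0.0515 to 0.0781). COL9A1 was not called in DESeq2's Wald test (log2 1.97, adjusted p = 0.0549) or without either PC3 eGFP library, PC3 ETV4WT replicate 2, either 22Rv1 eGFP library, 22Rv1 ETV4WT replicate 1 or PC3 ETV4WT replicate 2 and ETV4AAA replicate 2 together (log2 1.37 to 2.10, adjusted p 0.0575 to 0.184) and COL9A3 was not without either PC3 eGFP library, PC3 ETV4WT replicate 2, 22Rv1 eGFP replicate 2, either 22Rv1 ETV4WT library or PC3 ETV4WT replicate 2 and ETV4AAA replicate 2 together (log2 1.06 to 1.40, adjusted p 0.0617 to 0.119).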

How the results depend on the processing

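No collagen chain gene that was called changed direction under any alternative. In 22Rv1 with ETV4AAA the 22 calls became 20 to 25 under the other settings and 17 to 19 with a library left out, where those without ETV4AAA replicate 2 were 17 higher with all 4 lower calls ended. The 12 calls of PC3 ETV4WT became 7 to 14 with a library left out (9, all higher, without both replicate 2 libraries of the constructs), the 4 of PC3 ETV4AAA 2 to 7 (2 without PC3 ETV4WT replicate 2 and ETV4AAA replicate 2 together, and 13 with no low-count filter), the 6 of PC3 ETV4AAA against ETV4WT 4 to 5 (10 with no filter), the 2 of 22Rv1 ETV4WT 1 to 2 (5 with no filter), and the 9 of the ETV4WT interaction 3 to 10. The 20 calls of 22Rv1 ETV4AAA against ETV4WT became 15 to 16 with a library left out, the 32 between the lines 31 to 32, and the 17 of the ETV4AAA interaction 12 to 18. The cause of the change with no filter was not tested.

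Over all genes, the calls of PC3 ETV4AAA went from 858 to 2152 with no filter, 466 with PC3 alone and 213 to 2253 with a library left out. Those of 22Rv1 ETV4WT went from 348 to 904 with no filter and 119 without 22Rv1 ETV4WT replicate 1, those of the ETV4WT interaction from 2903 to 4436 with no filter and 1425 without PC3 eGFP replicate 2, those of PC3 ETV4WT from 5434 to 2553 without PC3 eGFP replicate 2, and those of PC3 ETV4AAA against ETV4WT from 2550 to 1657 with PC3 alone and 1341 without both replicate 2 libraries. Those of 22Rv1 ETV4AAA against ETV4WT went from 5455 to 3437 without 22Rv1 ETV4AAA replicate 1, and those of the ETV4AAA interaction from 3766 to 2317 without PC3 eGFP replicate 2. Upper-quartile factors shifted the median log2 change of all genes by 0.12 for PC3 ETV4WT, 0.32 between the lines, -0.18 for the ETV4WT and -0.10 for the ETV4AAA interaction.

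Whether replicate numbers pair the libraries is not known, as the labels name no shared batch. Same-numbered libraries deviated together with r from -0.149 to 0.494 over genes. The highest values were 0.494 for PC3 ETV4AAA with PC3 ETV4WT and 0.212 for 22Rv1 ETV4AAA with 22Rv1 eGFP. With a replicate block the collagen calls were 15 for PC3 ETV4WT, 6 for PC3 ETV4AAA, 7 for PC3 ETV4AAA against ETV4WT, 2 for 22Rv1 ETV4WT, 23 for 22Rv1 ETV4AAA, 20 for 22Rv1 ETV4AAA against ETV4WT, 31 between the lines, 9 for the ETV4WT and 18 for the ETV4AAA interaction. With 2 libraries per group, a left-out library leaves a group of 1, whose spread is taken from the other groups. Members with few counts, such as COL1A2, COL4A1 and COL22A1 in 22Rv1, have fitted changes that depth limits.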

Other observations

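Genes of cartilage outside the collagen family were read after COL2A1 and COL9A2 had been seen, so they are a description and no independent support. SOX9, a transcription factor of cartilage cells that is known to act on COL2A1, had 34.0 and 30.7 CPM in 22Rv1 eGFP, 65.3 and 79.5 with ETV4WT and 417 and 335 with ETV4AAA, and in PC3 95.3 and 95.7 with eGFP, 78.8 and 86.5 with ETV4WT and 104 and 108 with ETV4AAA. It rose in 22Rv1 with ETV4AAA (log2 3.54 ± 0.15, adjusted p = 9.63e-09, by edgeR's quasi-likelihood test) and with ETV4WT (1.16 ± 0.14, adjusted p = 0.00119).

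SOX5 and SOX6 are its partners in cartilage. SOX5 had 7.57 and 8.34 CPM with eGFP, 7.38 and 7.92 with ETV4WT and 16.3 and 17.2 with ETV4AAA in 22Rv1 (ETV4AAA change 1.07 ± 0.17, adjusted p = 5.65e-04) and 0.121 and 0.107 CPM with eGFP, 0.855 and 1.27 with ETV4WT and 0.164 and 0.215 with ETV4AAA in PC3 (ETV4WT change 3.18 ± 0.31, adjusted p = 2.47e-05). SOX6 had 0.738 and 1.07 CPM with eGFP, 0.871 and 0.980 with ETV4WT and 5.97 and 6.34 with ETV4AAA in 22Rv1 (ETV4AAA change 2.76 ± 0.20, adjusted p = 7.21e-07) and 0.443 and 0.494 CPM with eGFP, 1.49 and 1.53 with ETV4WT and 0.719 and 0.789 with ETV4AAA in PC3 (ETV4WT change 1.68 ± 0.23, adjusted p = 3.17e-04). In PC3 the ETV4WT libraries were thus the highest for both, as they were for COL2A1.

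The matrix genes HAPLN1, a link protein, and COMP, a protein of cartilage fibrils, went the way of COL2A1 in 22Rv1. HAPLN1 had 0 and 0.0206 CPM with eGFP, 0.348 and 0.225 with ETV4WT and 43.1 and 46.2 with ETV4AAA there, and its 3891 counts with ETV4AAA against 1 with eGFP gave a ratio of 4342 (95% interval 779 to 171538, counting error only). In PC3 eGFP it was already at 360.3 and 366 CPM. COMP had 0.390 and 0.0823 CPM with eGFP, 0.697 and 0.470 with ETV4WT and 27.8 and 18.6 with ETV4AAA in 22Rv1, a log2 change of 6.60 ± 0.50, adjusted p = 2.15e-06 with ETV4AAA.

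The other cartilage genes read were low. ACAN, the main cartilage proteoglycan, had 0.177 and 0.166 CPM in 22Rv1 ETV4AAA, CNMD 0 in both, MATN1 0.0666 and 0.0475, and PRG4 0.0444 and 0.119. CHAD, chondroadherin, had 0 and 0.0412 CPM with eGFP, 0 and 0.102 with ETV4WT and 0.244 and 0.166 with ETV4AAA and was called higher with ETV4AAA (adjusted p = 0.0265), on 18 against 2 counts, a ratio of 10.0 (95% interval 2.40 to 89.2, counting error only). That call was kept in 6 of 9 alternatives. MATN3 went from 1.23 and 1.46 CPM with eGFP to 0.643 and 0.617 with ETV4AAA (log2 -1.09 ± 0.23, adjusted p = 0.00361).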
